A study of Mus musculus with 11 samples.

Results

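Integrins were followed through 10 of their subunit genes in neonatal mouse lung fibroblasts that lack peptidylarginine deiminase 2 (PAD2KO) and in wild-type (WT) ones: Itga1, Itga3, Itga4, Itga5, Itga8, Itga11, Itgav, Itgb1, Itgb3 and Itgb5. They form a list of gene names, subunits that fibroblasts are known to use, among the 32868 named genes of the table. The list was chosen with earlier results of these data known, so its counts set beside those of all genes are description only. All 10 had counts in all 11 libraries, and 9 were among the 9932 genes that passed the filter on low counts. Itga4 did not pass it and is given by its values.

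The cells were primary lung fibroblasts, sorted by flow cytometry, and each library is bulk RNA sequencing of such a sample. The 4 groups were PAD2KO of batch 2 (PAD2KO 6 and PAD2KO 7), WT of batch 2 (WT 5, WT 6 and WT 7), PAD2KO of batch 1 (PAD2KO 1, PAD2KO 2 and PAD2KO 3) and WT of batch 1 (WT 1, WT 3 and WT 4). No treatment is named for any library, although the series title names TNF. The age is given as neonatal; the strain, the way Padi2 was removed, what set the batches apart and whether libraries came from separate animals are not stated. The p-values therefore speak for the spread among libraries, which may be technical.

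An integrin is a pair of 1 α and 1 β subunit that spans the cell membrane. Outside the cell it binds matrix proteins, and inside the cell the tail of the β subunit recruits talin and kindlin and, through them, actin. The α subunit largely sets the ligand: α1 (Itga1) and α11 (Itga11) bind collagens, α3 (Itga3) binds laminins, α4 (Itga4) binds VCAM-1 and fibronectin, and α5 (Itga5), α8 (Itga8) and αv (Itgav) bind proteins with the arginine-glycine-aspartate motif, RGD. The β1 subunit (Itgb1) partners all of these α subunits, while β3 (Itgb3) and β5 (Itgb5) pair with αv. In lung fibroblasts integrins are known for adhesion to matrix, for sensing its stiffness and, through αv, for the release of TGF-β from its latent form.

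Library totals of named genes were 962633 to 1421243 counts, at which 3 counts, the limit that 0 counts allow, correspond to 2.11 to 3.22 CPM (counts scaled by the TMM-adjusted library total; counting error only). Padi2, the gene removed in PAD2KO, had 0 to 4 counts in PAD2KO libraries and 0 to 2 counts in WT libraries, so the genotype labels could not be checked from it. All 8 fibroblast markers were detected in each group, with summed levels of 5190 to 5770 CPM in PAD2KO and 5180 to 5850 CPM in WT of batch 2, and 6580 to 8110 CPM in PAD2KO and 6930 to 9010 CPM in WT of batch 1. Their members did not move alike in batch 2: Dcn, the proteoglycan decorin, fell to 193 ± 70.1 CPM in PAD2KO, against 571 ± 82.1 CPM in WT (log2 difference -1.56, SE 0.251, adjusted p = 0.0074), and Thy1 was higher (0.85). The 6 epithelial markers summed to 23 to 41.1 CPM in PAD2KO and 22.5 to 35.7 CPM in WT of batch 2, and to 11.9 to 26.5 CPM in PAD2KO and 17.4 to 23.3 CPM in WT of batch 1. Most of this was the keratin Krt18, which was higher in batch 2 in PAD2KO (1.01, adjusted p = 0.0358, groups overlapping) and in WT (0.83, adjusted p = 0.0468). The keratin Krt8, below the count filter, went the other way. It averaged 0.821 CPM in batch 2 and 1.28 CPM in batch 1 in PAD2KO, and 0.623 and 3.65 CPM in WT. Sftpc and Nkx2-1 were at 0 in all 4 groups. The part of these markers in the integrin results was not tested, and the 6 endothelial markers summed to 12.9 CPM at most. The 6 immune markers summed to 16.1 to 63.2 CPM in the other groups and to 39.9 to 199 CPM in WT of batch 2, most of the highest value being Lyz2 in WT 7.

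Between genes, levels are compared here as TPM, which takes account of transcript length. In each of the 4 groups Itgb1 was the highest of the 10 genes and Itga5 the second, and their ranges overlapped neither each other nor that of the third gene. Itgb1 averaged 276 TPM in PAD2KO and 163 TPM in WT of batch 2, and 209 TPM in PAD2KO and 246 TPM in WT of batch 1. For Itga5 the means were 166 and 114 TPM in PAD2KO and WT of batch 2, and 103 and 116 TPM in PAD2KO and WT of batch 1. The third place changed with the batch: in batch 2 it was held by Itgav, at a mean of 43.9 TPM in PAD2KO and 25.1 TPM in WT, and in batch 1 by Itga8, at 62.8 TPM in PAD2KO and 67 TPM in WT. In WT of batch 2 the ranges of Itgav, Itgb5, Itga3, Itgb3 and Itga8 ran into each other, neighbour by neighbour, so that their order there is not settled. Itga11 and Itga4 were low in all groups, with mean levels of 4.26 to 4.87 TPM and 0.934 to 3.18 TPM.

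**Figure D1:**
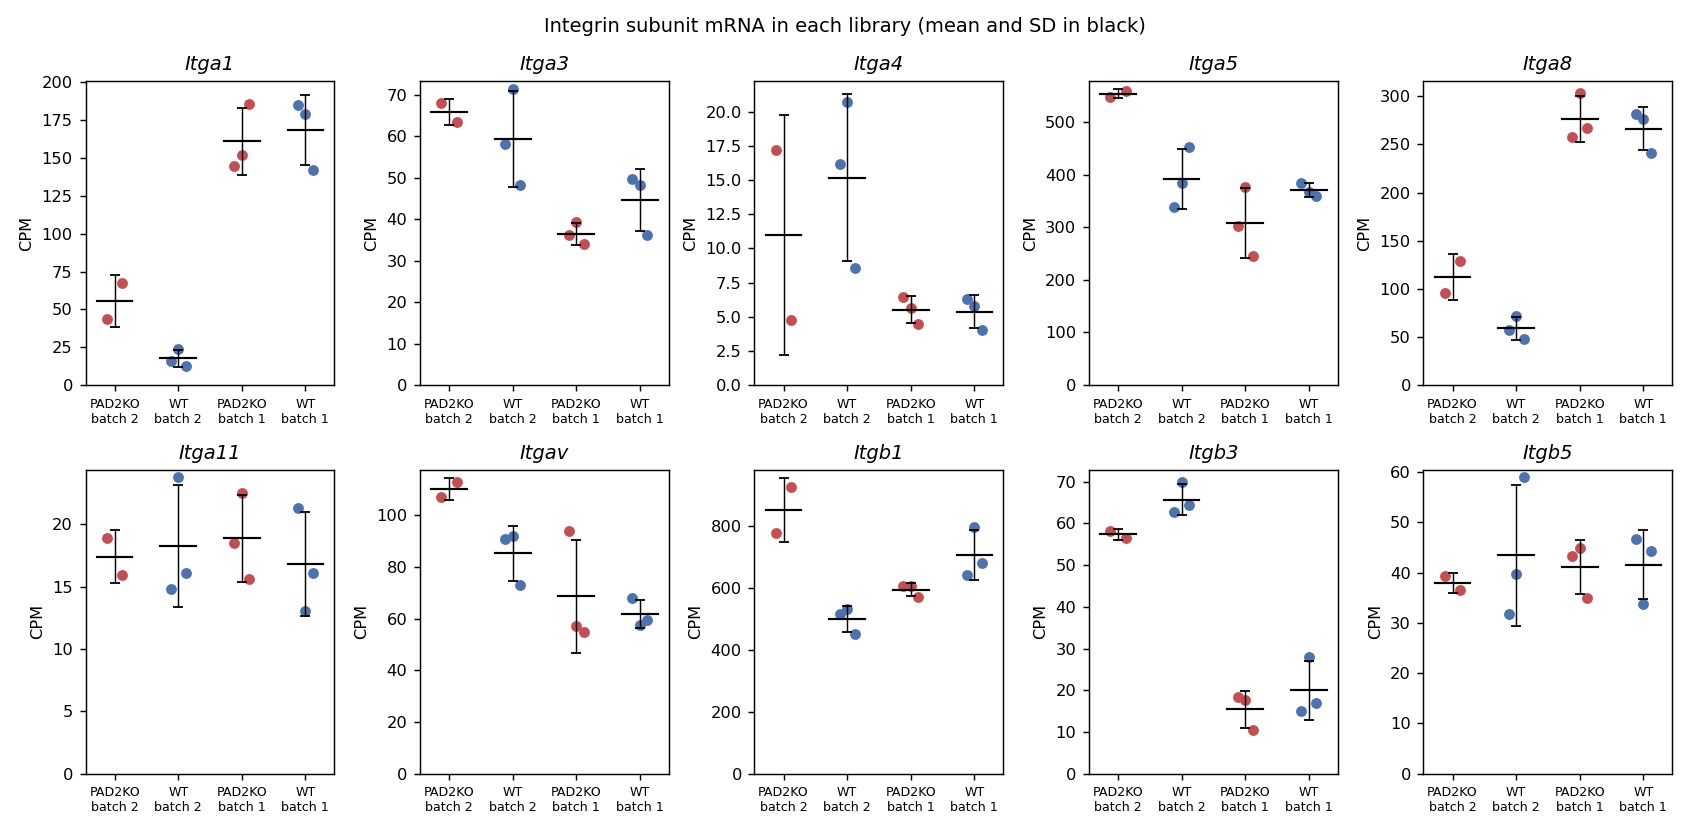
Level of each of the 10 integrin subunits in each library, in CPM on a linear axis from 0. Each point is 1 library (red PAD2KO, blue WT), the line is the group mean and the bar its SD (n = 2 for PAD2KO of batch 2, n = 3 for the other groups). Itga1 and Itga8 are lower and Itgb3 is higher in all 5 libraries of batch 2 than in the 6 of batch 1.

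PAD2KO fibroblasts of batch 2 carried more mRNA of 4 integrin subunits than WT fibroblasts of the same batch: the collagen receptor subunit Itga1 (3.08-fold), the RGD receptor subunits Itga8 (1.88-fold) and Itga5 (1.42-fold), and the common β subunit Itgb1 (1.70-fold). Itga1 stood at 43.5 and 67.5 CPM in PAD2KO 6 and PAD2KO 7, against 16.2, 23.8 and 12.9 CPM in WT 5, WT 6 and WT 7. Every PAD2KO library lay above every WT library of the batch, and the log2 difference was 1.62 (SE 0.253, adjusted p = 0.00031 by edgeR's quasi-likelihood test over all genes). Itga8, whose product binds nephronectin and is known from mesenchymal cells of the lung, stood at 95.2 and 129 CPM in PAD2KO 6 and PAD2KO 7, against 56.9, 71.5 and 48.3 CPM in WT 5, WT 6 and WT 7. These ranges did not overlap either, and the log2 difference was 0.91 (SE 0.168, adjusted p = 0.00145). In bulk samples a higher level cannot be told apart from more cells of a type that expresses the gene.

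Itgb1 was the most abundant member that rose. It stood at 777 and 925 CPM in PAD2KO 6 and PAD2KO 7, against 515, 531 and 450 CPM in WT 5, WT 6 and WT 7. The groups were separate, and the log2 difference was 0.77 (SE 0.119, adjusted p = 0.000171). Itga5, which with Itgb1 forms the classical fibronectin receptor, stood at 548 and 560 CPM in PAD2KO 6 and PAD2KO 7, against 339, 384 and 452 CPM in WT 5, WT 6 and WT 7. Its groups did not overlap, but the call was near the threshold (log2 difference 0.51, SE 0.139, adjusted p = 0.0426).

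The other subunits tested did not pass in batch 2. Itgav, the α subunit that β3 and β5 share, was at 107 and 113 CPM in PAD2KO 6 and PAD2KO 7, against 90.8, 92.1 and 73.0 CPM in WT 5, WT 6 and WT 7, a log2 difference of 0.35 with a 95% interval of -0.02 to 0.72. Its partner Itgb3 was at 58.3 and 56.4 CPM in these PAD2KO libraries and at 62.8, 69.9 and 64.4 CPM in these WT libraries, a difference of -0.20 (interval -0.64 to 0.24). The interval ran from -0.26 to 0.53 for Itga3, from -0.74 to 0.59 for Itga11 and from -0.66 to 0.34 for Itgb5. In all, 4 of the 9 subunits were called, all 4 higher, where 3.11% of the 9932 genes were called in either direction, 1.4% higher and 1.71% lower. The groups did not overlap for 6 subunits, 5 higher and 1 lower, where this held for 31.1% of all genes (15.5% higher, 15.7% lower). The median log2 difference was 0.35 over the 9 subunits and -0.007 over all genes.

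The 6 markers of pericytes and smooth muscle summed to 634 to 671 CPM in PAD2KO and 261 to 374 CPM in WT of batch 2, and to 971 to 1310 CPM in PAD2KO and 1200 to 1370 CPM in WT of batch 1, with none of the 6 at 0 in any group. Among them Cnn1, the actin-binding calponin, averaged 342 ± 28.1 CPM in PAD2KO and 143 ± 13.4 CPM in WT of batch 2 (SD, n = 2 and 3), and Myh11, the smooth muscle myosin heavy chain, 111 ± 15.1 and 32 ± 1.71 CPM. Both were called higher, as was Lmod1 (1.41, adjusted p = 0.0245), and Des was at 0.49 (adjusted p = 0.446). The pericyte genes of the list were the lower ones in PAD2KO: Notch3 averaged 5.23 ± 1.59 CPM in PAD2KO and 13.1 ± 4.35 CPM in WT of batch 2 (-1.27, adjusted p = 0.142), and Rgs5, which was below the count filter, 1.62 ± 0.0374 and 9.14 ± 3.25 CPM. Their part in the integrin result was not tested.

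The result leans on PAD2KO 7, the higher of the pair for Itga1, Itga8 and Itgb1. Without it 2 subunits were called, Itga1 (1.27, adjusted p = 0.0444) and Itgb1 (0.64, adjusted p = 0.0326), while Itga8 was at 0.68 (adjusted p = 0.186) and Itga5 at 0.49 (adjusted p = 0.338). The whole table gave 65 calls without that library, and 309 with it. With PAD2KO 6 as the only PAD2KO library of the batch, its spread is assumed to be that of the other groups. With all libraries and offsets from the gene lengths, Itga1 and Itgb1 were called in batch 2, while Itga8 and Itga5 were not. Itga5 also missed the threshold without WT 3, WT 5, WT 6 or PAD2KO 6 (0.42 to 0.52), and in DESeq2 (adjusted p = 0.053).

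The sequences around the starts of the 4 genes that rose together are shown, each from 250 bases before to 50 bases after the start, as given by RefSeq for GRCm38.p6 (not the build of the counts). Capitals mark matches on either strand to a GC box (GGGCGG) or to the TEAD motif (GGAATG). The table held a start region for 9 of the 10 members, and Itgb3 is named only.
Itga1, chr13:115101915-115102214, minus strand: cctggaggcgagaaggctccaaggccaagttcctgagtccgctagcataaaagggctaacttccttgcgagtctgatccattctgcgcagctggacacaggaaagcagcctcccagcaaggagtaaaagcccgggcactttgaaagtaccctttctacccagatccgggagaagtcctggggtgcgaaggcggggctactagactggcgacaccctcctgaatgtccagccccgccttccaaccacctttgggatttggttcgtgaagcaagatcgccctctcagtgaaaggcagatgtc
Itga8, chr2:12301895-12302194, minus strand: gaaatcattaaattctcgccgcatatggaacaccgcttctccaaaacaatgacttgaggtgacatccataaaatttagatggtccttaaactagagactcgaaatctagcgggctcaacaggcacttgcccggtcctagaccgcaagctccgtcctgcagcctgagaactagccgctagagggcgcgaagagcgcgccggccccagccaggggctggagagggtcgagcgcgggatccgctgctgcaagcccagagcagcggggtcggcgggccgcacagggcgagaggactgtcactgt
Itgb1, chr8:128685404-128685703, plus strand: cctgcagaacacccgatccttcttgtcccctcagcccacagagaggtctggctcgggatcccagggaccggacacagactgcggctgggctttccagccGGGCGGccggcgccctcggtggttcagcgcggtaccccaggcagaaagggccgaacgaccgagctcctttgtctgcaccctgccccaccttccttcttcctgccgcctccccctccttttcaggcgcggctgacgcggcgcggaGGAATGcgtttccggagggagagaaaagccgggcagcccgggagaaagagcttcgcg
Itga5, chr15:103366742-103367041, minus strand: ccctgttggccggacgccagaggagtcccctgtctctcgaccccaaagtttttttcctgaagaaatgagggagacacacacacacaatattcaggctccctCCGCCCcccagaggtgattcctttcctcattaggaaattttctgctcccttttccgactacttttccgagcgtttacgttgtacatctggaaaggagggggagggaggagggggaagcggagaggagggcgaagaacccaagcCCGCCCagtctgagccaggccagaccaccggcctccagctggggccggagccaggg
The motifs searched were the CArG box bound by SRF, the TEAD motif, AP-1 (TGANTCA), the GC box and TATAAA, on both strands. Among the 4 regions printed, Itgb1 held 1 TEAD match, 7 bases before the start, and 1 GC box, Itga5 held 2 GC boxes, and Itga1 and Itga8 held no match to any of the 5. Of all 32851 start regions of the same length, 14.7% held the TEAD motif, 35.7% the GC box, 7.81% AP-1, 13.6% TATAAA and 1.63% a CArG box. A match describes the letters in the window and is not evidence of binding.

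In batch 1 none of the 9 subunits differed between PAD2KO and WT by the same test. Itga1 stood at 145, 152 and 186 CPM in PAD2KO 1, PAD2KO 2 and PAD2KO 3, against 185, 179 and 142 CPM in WT 1, WT 3 and WT 4. These ranges overlapped almost fully (log2 difference -0.07, interval -0.36 to 0.23). Itga8 was at 258, 303 and 267 CPM in the PAD2KO libraries and at 282, 276 and 241 CPM in the WT libraries (0.05, interval -0.20 to 0.30). Itgb1 was the 1 subunit whose groups did not overlap, at 607, 606 and 569 CPM in PAD2KO and 640, 795 and 681 CPM in WT. Its level was the lower one in PAD2KO (-0.25, SE 0.107), with an unadjusted p under 0.05 and an adjusted p of 0.813. The other subunit with an unadjusted p under 0.05 was Itga5 (-0.26, adjusted p = 0.901), with 302, 377 and 246 CPM in PAD2KO and 385, 368 and 359 CPM in WT. Of the 9932 genes, 0.131% were called in batch 1, 5.49% had an unadjusted p under 0.05, and 11.3% had groups that did not overlap, 5.92% with PAD2KO lower. DESeq2 called 0 of the 9 as well.

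The genotype difference of the same 4 subunits was larger in batch 2 than in batch 1 by the test of that difference itself. The interaction, the log2 difference of PAD2KO from WT in batch 2 minus that in batch 1, was 1.69 for Itga1 (SE 0.292, adjusted p = 0.00184), 1.02 for Itgb1 (SE 0.160, adjusted p = 0.000483), 0.86 for Itga8 (SE 0.209, adjusted p = 0.0267) and 0.77 for Itga5 (SE 0.189, adjusted p = 0.0318) in edgeR's test. Of all genes 1.62% were called, 0.665% in the positive direction and 0.957% in the negative one. Itga3 (0.43), Itgav (0.21), Itgb3 (0.19), Itgb5 (-0.15) and Itga11 (-0.25) did not pass. The intervals of these 5 reached 0.98 for Itga3, 0.73 for Itgav, 0.89 for Itgb3, 0.51 for Itgb5 and 0.62 for Itga11, so differences of the size seen for Itga8 are within those of Itga3 and Itgb3.

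Leaving out 1 library at a time, 1 to 4 of the 9 subunits were called for the interaction. Without PAD2KO 7 only Itgb1 was called of the 9 (0.88, adjusted p = 0.0182), and Itga1 was at 1.33 (adjusted p = 0.0781). Itga8 missed the threshold without WT 1, WT 3, WT 5, WT 7, PAD2KO 1, PAD2KO 3 or PAD2KO 7, with values of 0.62 to 0.84 in these fits. Itga5 missed it without WT 1, WT 3, WT 5, WT 6 or any single PAD2KO library other than PAD2KO 2. Its values in these fits were 0.63 to 0.79. With all libraries and offsets from the gene lengths, Itgb1 was called for the interaction, while Itga1, Itga8 and Itga5 were not.

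**Figure D2:**
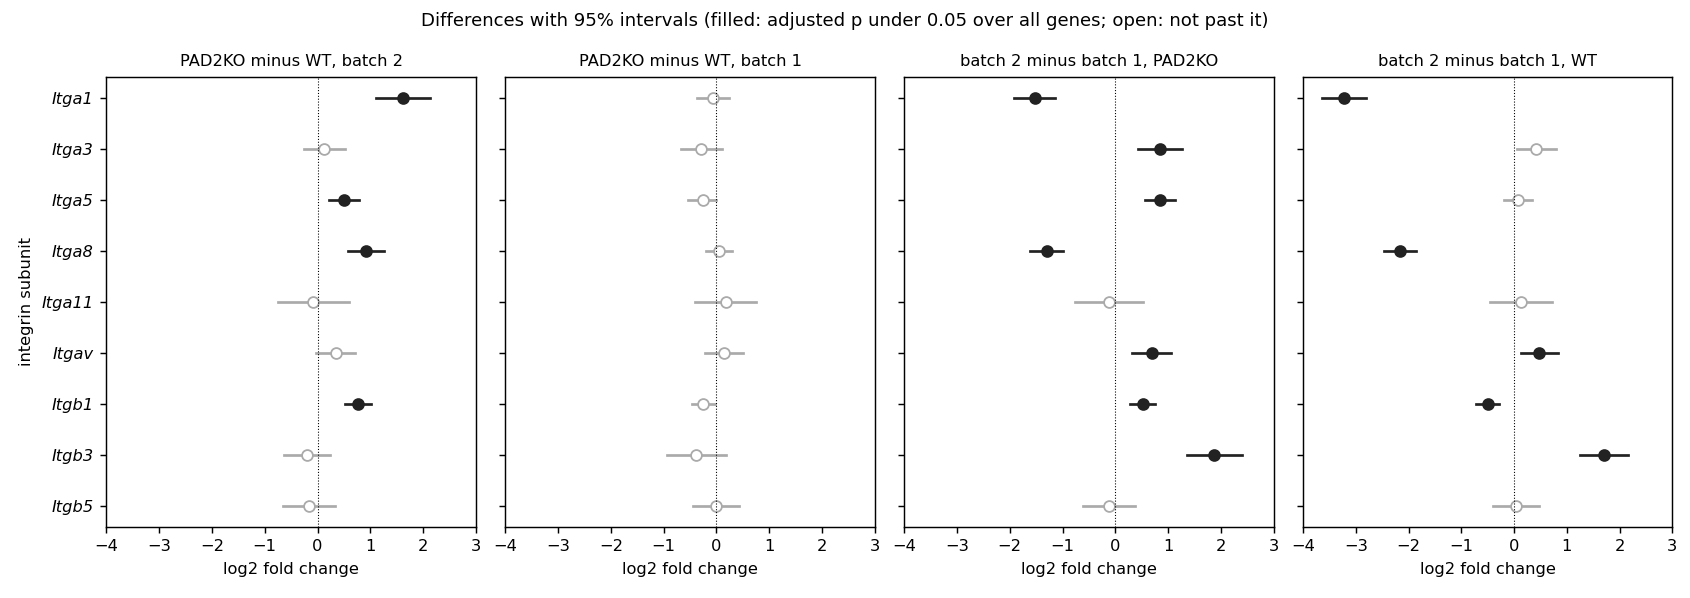
Log2 fold changes of the 9 subunits tested, with 95% intervals from edgeR's fit of 4 group means to all 11 libraries, in 4 comparisons. Filled points passed an adjusted p of 0.05 over all genes: 4 in PAD2KO against WT of batch 2, none in batch 1, 7 for batch 2 against batch 1 in PAD2KO and 5 in WT.

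With both batches in 1 fit and batch as a term, no subunit passed (0.191% of all genes did). At an unadjusted p under 0.05 the count was 1 of 9, Itga8, where 7.64% of all genes were. Its difference was 0.37 (SE 0.150, adjusted p = 0.586), and DESeq2 also called 0. Itga1 was at 0.39 with an interval of -0.27 to 1.05, Itgav at 0.25, Itgb1 at 0.21 and Itgb3 at -0.27. This fit gives the batches a common difference, whereas the interaction was called for 4 of the 9. For Itga1, Itga8 and Itga5 that call did not hold in all settings. The plain mean of the within-batch differences from the fit of 4 group means was 0.78 for Itga1 (adjusted p = 0.00557) and 0.48 for Itga8 (adjusted p = 0.0172). Itga8 was also called, at 0.38 (adjusted p = 0.0298), when no filter on low counts was applied.

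Between the batches the log2 differences of the subunits ran from -3.22 to 1.88, against -0.38 to 1.62 between the genotypes within a batch. The collagen and RGD receptor subunits Itga1 and Itga8 were lower in batch 2 than in batch 1 in both genotypes, and Itgb3 was higher in both. For Itga1 the log2 difference of batch 2 from batch 1 was -1.53 in PAD2KO (SE 0.189, adjusted p = 1.96e-06) and -3.22 in WT (SE 0.201, adjusted p = 6.54e-12), which leaves 0.346 and 0.107 of the batch 1 level. For Itga8 it was -1.30 in PAD2KO (SE 0.151, adjusted p = 3.59e-07) and -2.16 in WT (SE 0.144, adjusted p = 3.55e-12), or 0.406 and 0.223 of the batch 1 level. Of the smooth muscle markers given above, Myh11 and Des were called lower in batch 2 in both genotypes. Cnn1 and Lmod1 were called lower in WT but not in PAD2KO (-0.34 and -0.58). Notch3 was not called in either genotype. Rgs5, below the count filter, averaged 1.62 CPM in batch 2 and 0.75 CPM in batch 1 in PAD2KO, and 9.14 and 2 CPM in WT. The 5 mesothelial markers summed to 79.5 to 125 CPM in PAD2KO and 59 to 125 CPM in WT of batch 2. In batch 1 they summed to 160 to 414 CPM in PAD2KO and 296 to 489 CPM in WT. None was at 0 in any group. In PAD2KO against WT of batch 2, Msln was called higher (3.55, interval 1.82 to 5.29, adjusted p = 0.0155), at 7.69 against 0.511 CPM. The WT mean came from 2 counts over 3 libraries. In the same comparison Wt1 (-0.86), Upk3b (1.06), Lrrn4 (0.38) and Upk1b (0.36) were not called. Between the batches Msln, Upk3b, Lrrn4 and Upk1b were called lower in WT, and only Lrrn4 in PAD2KO, where Msln was at 0.13. The part of these in the result was not tested. These comparisons share libraries with those between the genotypes, so they are not separate evidence of the same pattern.

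Itgb3, the β subunit of the vitronectin receptor αvβ3, went the other way. It was at 58.3 and 56.4 CPM in the PAD2KO libraries of batch 2, against 18.5, 17.6 and 10.4 CPM in those of batch 1 (log2 difference 1.88, SE 0.254, adjusted p = 3.74e-06). WT libraries had 62.8, 69.9 and 64.4 CPM in batch 2, against 15.0, 28.1 and 16.9 CPM in batch 1 (1.70, SE 0.222, adjusted p = 9.85e-07). Neither pair of groups overlapped, and the rise was 3.69-fold in PAD2KO and 3.25-fold in WT. Platelets also carry β3, with αIIb. The 5 platelet and megakaryocyte markers, among them Itga2b for αIIb, summed to 5.75 to 7.15 CPM in PAD2KO and 5.56 to 16.1 CPM in WT of batch 2, and to 2.97 to 4.22 CPM in PAD2KO and 4.32 to 8.05 CPM in WT of batch 1. Of these, Itga2b averaged 2.85 CPM in PAD2KO and 4.57 CPM in WT of batch 2. Its means in batch 1 were 2.44 CPM in PAD2KO and 3.83 CPM in WT. Pf4 averaged 3.19 CPM in PAD2KO and 5.34 CPM in WT of batch 2. In batch 1 Pf4 was at 0.268 CPM in PAD2KO and 0.794 CPM in WT, from 1 and 3 counts in all. Gp1bb was at 0 in both groups of batch 2, Ppbp in all but WT of batch 2 and Gp9 in both WT groups. The part of such cells in the Itgb3 values was not tested.

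Itgb1 moved in opposite directions between the batches: it was higher in batch 2 than in batch 1 in PAD2KO (0.52, SE 0.118, adjusted p = 0.00216) and lower in WT (-0.50, SE 0.108, adjusted p = 0.000933). The PAD2KO part of this rested on PAD2KO 7, without which it was 0.38 (adjusted p = 0.102). Itga5 was higher in batch 2 in PAD2KO (0.84, SE 0.139, adjusted p = 7.9e-05), and in WT the difference was 0.07 with an interval of -0.19 to 0.34. Itga3, of the laminin receptor, was higher in batch 2 in PAD2KO (0.85, adjusted p = 0.00314), at 68.1 and 63.6 CPM in batch 2 and 36.1, 39.4 and 34.1 CPM in batch 1. With offsets from the gene lengths the PAD2KO difference was 0.83 and was not called (adjusted p = 0.167). In WT Itga3 was at 0.42 (adjusted p = 0.0979), with values from 0.01 with these offsets (adjusted p = 0.986) and 0.27 without WT 6 to 0.53 without WT 7, the setting in which it was called (adjusted p = 0.0428).

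Itgav was higher in batch 2 in PAD2KO (0.69, adjusted p = 0.00868) and in WT (0.48, adjusted p = 0.0476). The PAD2KO call ended without PAD2KO 3 (0.55) or PAD2KO 7 (0.64) and with length offsets (0.68, adjusted p = 0.439), and the WT call without WT 1, WT 3, WT 4, WT 5 or WT 6 (0.43 to 0.55) or without either PAD2KO library of batch 2. The effective length of Itgav, which depends on its transcript mix, differed between libraries by 236%, and with offsets from these lengths the difference in WT was -0.09. Itga11 and Itgb5 did not pass in either genotype, with intervals of -0.77 to 0.53 and -0.61 to 0.38 in PAD2KO and of -0.46 to 0.72 and -0.40 to 0.47 in WT. In all, 7 of 9 subunits were called in PAD2KO, 5 higher and 2 lower, where 18.7% of all genes were called, 9.52% higher and 9.13% lower. In WT 5 of 9 were called, 2 higher and 3 lower, where 22.3% of all genes were, 11.7% higher and 10.6% lower. Groups that did not overlap were those of the same 7 and 5 subunits, where this held for 46% of all genes in PAD2KO (22.4% higher, 23.7% lower) and 36.5% in WT (18.7% higher, 17.8% lower).

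Itga4, below the filter, had 21 and 6 counts in PAD2KO 6 and PAD2KO 7, 22, 26 and 8 counts in WT 5, WT 6 and WT 7, and 5 to 8 counts in each library of batch 1. In CPM that was 17.2 and 4.77 in PAD2KO of batch 2, 16.2, 20.7 and 8.59 in WT of batch 2, 4.45 to 6.42 in PAD2KO of batch 1 and 4.02 to 6.31 in WT of batch 1. WT libraries of batch 2 all lay above those of batch 1, while PAD2KO 6 and PAD2KO 7 lay on different sides of their WT counterparts' lowest value. Some other settings of the filter, or leaving out a PAD2KO library, let Itga4 into the fit, in part through the libraries in which it is high, so these fits are given as values only. Batch 2 differed from batch 1 by 0.85 to 1.63 in PAD2KO and by 1.5 to 1.52 in WT, and PAD2KO differed from WT by -0.50 to 0.15 in batch 2.

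The mix of subunits was then described as shares of summed TPM within each library, with no test. Of the summed TPM of the collagen-binding subunits Itga1, Itga2 and Itga11, Itga1 made up 48.9% and 58.6% in PAD2KO 6 and PAD2KO 7, and 18.9% to 36.3% in WT libraries of batch 2. In batch 1 its share was 67.9% to 85.3% in PAD2KO and 66.7% to 82.6% in WT. Itga2, which is not among the 10 subunits, held 27.1% and 23.4% in PAD2KO 6 and PAD2KO 7 and 27.9% to 48.8% in WT libraries of batch 2, and 5.5% to 21.9% in PAD2KO and 6.23% to 25.8% in WT of batch 1. The TPM of Itga2 follows an effective length of 1541 to 6894 bases that differed between libraries. That of Itga1 differed by 141%, and was 8887, 5766 and 3693 bases in WT 5, WT 6 and WT 7. Of these, WT 7 had the lowest Itga1 level in CPM (12.9) but the highest share (36.3%). In the sums below, effective lengths differed by 236% for Itgav and 114% for Itgb5. Of the sum of Itga5, Itga8 and Itgav, Itga8 made up 8.42% and 12% in PAD2KO and 6.55% to 8.98% in WT of batch 2, but 28.8% to 37.9% in PAD2KO and 27.6% to 34.2% in WT of batch 1. Itga5 held the largest share of these 3 in each of the 11 libraries. Of the sum of Itgb1, Itgb3 and Itgb5, Itgb3 made up 3.51% and 4.30% in PAD2KO and 6.74% to 6.88% in WT of batch 2, and 1.05% to 1.74% in PAD2KO and 1.33% to 2.05% in WT of batch 1. Itgb1 held 77.5% to 92.1% of that sum over all libraries. mRNA shares are not receptor shares, since pairing and surface transport are not measured.

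**Figure D3:**
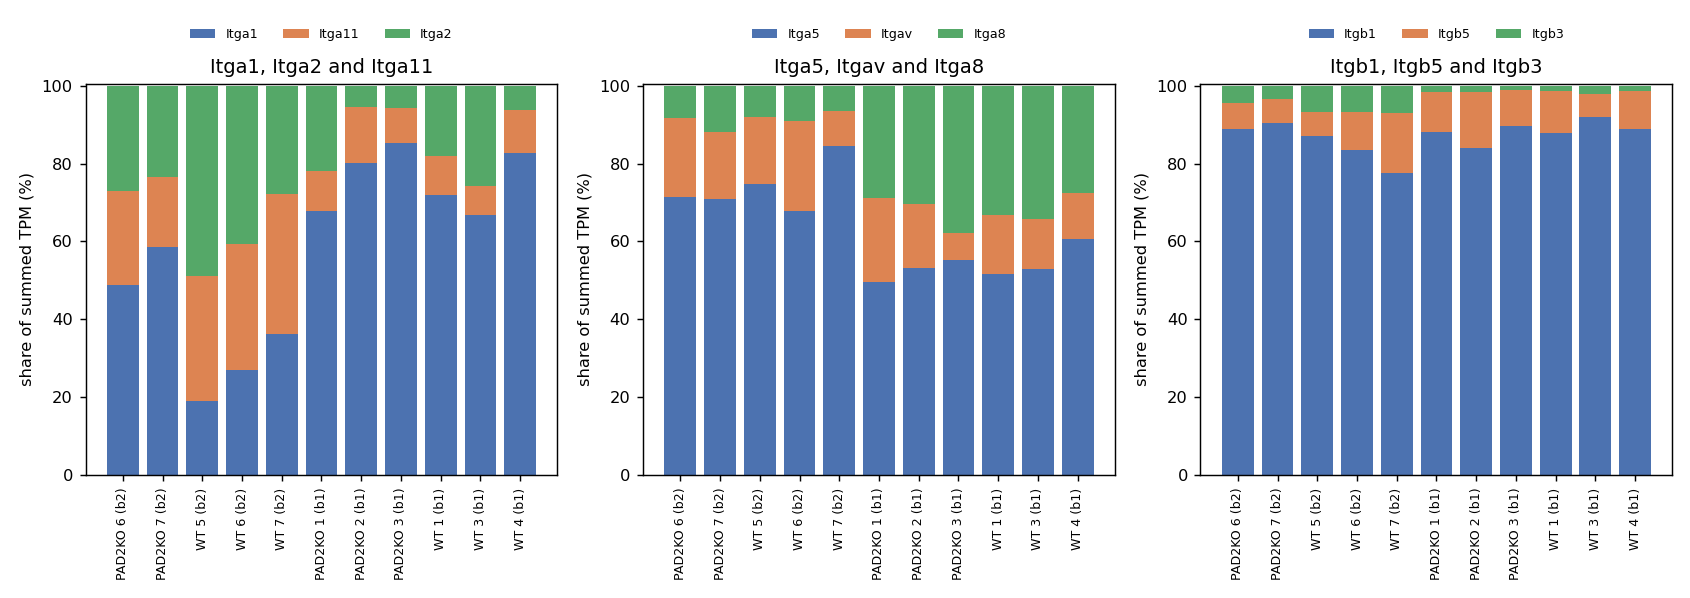
Shares of summed TPM in each library (b2, batch 2; b1, batch 1), as stacked bars, for Itga1, Itga2 and Itga11 (left), Itga5, Itgav and Itga8 (middle), and Itgb1, Itgb5 and Itgb3 (right). The share of Itga1 in the left panel is 48.9% and 58.6% in PAD2KO of batch 2, 36.3% or less in WT of batch 2, and 66.7% or more in batch 1.

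Of 16 other integrin subunits, 14 were below the count filter, among them Itga6, Itga9, Itgb4 and Itgb8. Those tested were Itga2, another collagen-binding α subunit, and Itga7, a laminin-binding subunit known from muscle. Itga7 averaged 11.8 ± 9.98 CPM in PAD2KO and 33 ± 5.50 CPM in WT of batch 2 (SD, n = 2 and 3), and fell by 1.49 (SE 0.360, adjusted p = 0.0176). It was not called without WT 5, without PAD2KO 7, with length offsets or in a fit of batch 2 alone. In WT it was higher in batch 2 than in batch 1 (1.36, adjusted p = 0.0015). Itga2 was at -0.07 in PAD2KO against WT of batch 2. It was called higher in batch 2 than in batch 1 in PAD2KO (0.96, adjusted p = 0.0327), but not in DESeq2, with length offsets or without PAD2KO 2, PAD2KO 3, PAD2KO 6 or PAD2KO 7. In WT it was also called (0.86, adjusted p = 0.0257), although the groups overlapped in CPM and the mean TPM ran the other way, 5.2 in batch 2 and 8.83 in batch 1.

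In the list of integrin activators and adhesion adaptors, which also holds Itgb1bp1 and Sharpin, 5 of 20 tested were higher in PAD2KO of batch 2. None was lower, and of all genes 1.4% were called higher and 1.71% lower. The median log2 difference was 0.35, against -0.007 over all genes. By smallest p they were led by Vcl, the talin and actin binder vinculin, at 706 ± 126 CPM in PAD2KO and 371 ± 41.3 CPM in WT (0.93, SE 0.131, adjusted p = 6.39e-05), and Tns1, the β-tail binder tensin 1, at 325 ± 70.1 and 171 ± 21.3 CPM (0.93, SE 0.140, adjusted p = 0.00015). Tns3, another tensin, was at 0.53 and Actn4, an α-actinin, at 0.47. In batch 1 none of the 20 was called and the median was -0.14. Over all genes of that batch 0.131% were called and the median was -0.001. Both Vcl (1.13, adjusted p = 0.000483) and Tns1 (0.95, adjusted p = 0.00472) were called for the interaction, as 4 of the 20 were in all. By that test 0.665% of all genes were called in the positive direction and 0.957% in the negative one. Between the batches 12 of the 20 were lower and 0 higher in batch 2 in WT, where 10.6% of all genes were lower and 11.7% higher. In PAD2KO 5 were lower and 1 higher, where 9.13% of all genes were lower and 9.52% higher. That count of 5 was 0 with length offsets, 1 without PAD2KO 6, 3 without PAD2KO 2 or PAD2KO 3, and 3 in DESeq2.

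Of 17 signalling kinases and scaffolds tested, 2 were higher and 0 lower in PAD2KO of batch 2: Nedd9, a docking protein of focal adhesions, at 0.89 (SE 0.182, adjusted p = 0.00399), and Rac1, a small GTPase of the leading edge, at 0.53 (adjusted p = 0.0397), where 1.4% of all genes were higher and 1.71% lower. Of 11 membrane partners, set against the same shares, Thy1 (0.85, adjusted p = 0.00662) and Cav1 (0.72, adjusted p = 0.00834), a surface glycoprotein and the coat protein of caveolae, were higher, and the tetraspanin Cd9 was lower (-0.58, adjusted p = 0.0227). In batch 1 none of the genes of these lists was called, where 0.131% of all genes were.

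Ligands of the integrins did not move as 1 group. Of 14 collagens, laminins and nidogen, 4 were higher and 1 lower in PAD2KO of batch 2, where 1.4% of all genes were higher and 1.71% lower. The higher ones were led by the basement membrane collagens Col4a2 (1.01, SE 0.159, adjusted p = 0.000819) and Col4a1 (0.94, SE 0.157, adjusted p = 0.00132), both ligands of α1β1, and by the laminin chain Lama5 (0.68, adjusted p = 0.00834). The interstitial collagen Col3a1 was lower (-0.55, SE 0.123, adjusted p = 0.00915). Of 15 ligands of the RGD-binding and α4 integrins, 4 were higher and 1 lower, against the same shares, among them Thbs1 (0.80, SE 0.122, adjusted p = 0.000178), Ccn1 (0.62, adjusted p = 0.00322) and Ccn2 (1.16, adjusted p = 0.025), all matricellular proteins. Vcam1, the cell surface ligand of α4, was lower (-0.75, SE 0.155, adjusted p = 0.00739), at 409 ± 151 CPM in PAD2KO and 686 ± 40.8 CPM in WT. In batch 1 none of the ligands of either list was called, where 0.131% of all genes were. Spp1, osteopontin, an RGD protein bound by αvβ3, was higher in batch 2 than in batch 1 in both genotypes. The difference was 3.38 in PAD2KO (adjusted p = 0.000979) and 3.72 in WT (adjusted p = 0.000311). Of the 14 collagens, laminins and nidogen, 12 were lower and 0 higher in batch 2 in WT. Of the 15 other ligands, 7 were lower and 2 higher there, where 10.6% of all genes were lower and 11.7% higher. In PAD2KO 5 of the 14 were lower and 1 higher, and 3 of the 15 were lower and 5 higher. For that comparison 9.13% of all genes were lower and 9.52% higher. Without PAD2KO 7, which leaves 1 PAD2KO library in batch 2, fewer genes were called there. This held for activators and adaptors, signalling genes, membrane partners and each ligand list.

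**Figure D4:**
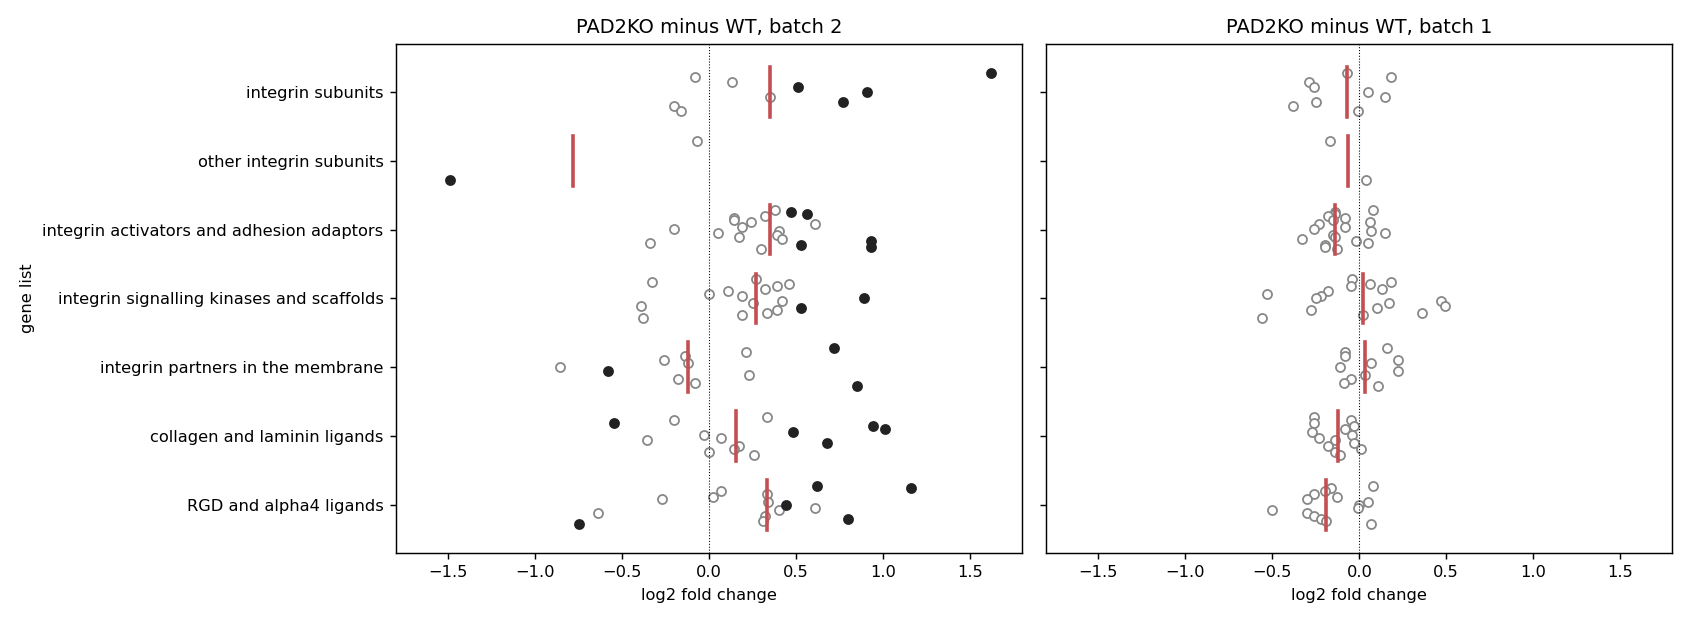
Log2 difference of PAD2KO from WT for each gene tested in the integrin list and in 6 lists of other integrin subunits, adhesion proteins and ligands, in batch 2 (left) and batch 1 (right). Each point is 1 gene, filled where the adjusted p was under 0.05 over all genes, and red lines are medians. In batch 2 the medians of the integrin subunits and of the adhesion adaptors are both 0.35, and in batch 1 they are -0.07 and -0.14.

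For a description of likeness, log2 CPM was centred on each batch and the root mean square difference over the 11 libraries was taken. Closest to Itga8, the subunit with the smallest p over both batches, were Tiparp (0.0906), Pip4k2a (0.0966) and Tns1 (0.102), where the median over all genes was 0.413. Closest to Itgb1, the subunit with the smallest interaction p, were Pls3 (0.0861), Phldb2 (0.0956) and Evc (0.0980), where the median was 0.368. Pls3 encodes an actin-bundling plastin and Phldb2 a protein that anchors microtubules at the cell edge.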

How the data were processed

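Total RNA was column-purified and made into SMARTer libraries, per the labels' protocols. The tools and build named per the submitters' processing notes are Salmon 1.3.2, fastp, DESeq2 1.46.0 and GRCm39, with no roles; use of strand is not stated. The authors deposited 1 table with estimated counts, TPM and effective gene lengths for each library. Reads carry no molecular identifiers, so copies of a molecule were counted as separate reads. Estimated counts share reads between similar transcripts by a model.

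Of 56065 entries, 23133 without a symbol (3.80% to 6.40% of counts) were left out. Counts were summed by symbol and rounded. Rn18s took 8.52% to 12.1% of a library. Tests were made in edgeR 4.0.16 under R 4.3.3 (TMM, filterByExpr on genotype, robust quasi-likelihood fit), with batch and genotype as terms, or with 4 means of genotype and batch for the differences within batches, within genotypes and between them. The p-values were adjusted by Benjamini-Hochberg over 9932 genes, with a call at 0.05. SEs are the log2 difference divided by the root of the F statistic, and intervals are 95%. The common biological coefficient of variation was 0.129. CPM uses TMM-scaled totals; log2 CPM has a prior count of 2. DESeq2 1.42.0 was an alternative. The tests were tested on simulated counts. Figures were drawn with matplotlib 3.10.9 in Python 3.11.15.

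The named genes were all 10 subunits and, from each other list, up to 4 called genes per comparison by smallest p; marker genes, and Itga2 in the shares of TPM, were singled out after their values were seen. Members and lists were chosen with earlier results of these data known. Within groups, the counts of WT 5 and WT 6 were closest to each other (chi-square per degree of freedom 1.47, other pairs 2.16 to 3.37); both were kept. In the GENCODE M21 annotation an exon of Itga4 overlaps Cerkl on the other strand (0 to 3 counts a library), and one of Itga8 overlaps E030013I19Rik (0 to 10 counts). Exons of Itga1 and Itgav overlap Gm49395 and Gm13684. Such reads cannot be told apart without strand.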

Additional observations from a re-analysis of the deposited data

Results flagged for a closer look

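Of the subunits tested, 4 had a difference between PAD2KO and WT that itself differed between the batches, by edgeR's interaction test over all 11 libraries. The interaction was 1.69 for Itga1, 1.02 for Itgb1, 0.86 for Itga8 and 0.77 for Itga5 on the log2 scale, each with the higher difference in batch 2. Of all genes, 1.62% were called by this test. Without PAD2KO 7 only Itgb1 of the 9 was called. Dixon's test flagged no library in the 18 groups of values examined, each of a single genotype over both batches. Where the batches lie apart, as for Itga1, Itga8 and Itgb3, that gap makes up most of the range. The test could then hardly flag a single library, and its chance rate of about 1 in 20 does not apply.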

How the results depend on the processing

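The counts of subunits called differed from those reported in 42 of 118 alternatives, by over 1.5 times in 11. They were 2 to 4 in batch 2, 1 to 4 for the interaction, 4 to 6 (reported as 5) between batches in WT and 5 to 7 (reported as 7) in PAD2KO, and 0 throughout in batch 1. Over both batches they were 1 with no filter on low counts and 2 for the mean of the within-batch differences, against 0. With offsets from the deposited gene lengths they were 2 in place of 4 in batch 2 and 1 in place of 4 for the interaction. Leaving out 1 library gave 2 to 4 calls in batch 2 and 1 to 4 for the interaction, the lowest without PAD2KO 7. With the same offsets the difference of Itgav between batches in WT was reversed, at -0.09. For 23 pairs of a subunit and a comparison, 394 of 445 alternatives kept the sign and the call, 46 lost the call and 4 gained it; the cause was not tested. Another 31 pairs, uncalled as reported, changed sign in 29 of 617 alternatives. Same-numbered libraries had correlations of 0.002 to 0.049 in their deviations from group means, and other pairs -0.122 to 0.177. With means of 2 or 3 libraries these values cannot decide whether the numbers pair the libraries. With the replicate block 3 subunits were called in batch 2 and 3 for the interaction, and Itga7 was not called in batch 2. Taking WT 5 and WT 6 as 1 library, chosen after seeing the data, gave 3 and 3. Calls over all genes depended more on the setting: over both batches 19, against 142 with no filter, 30 in DESeq2, 95 for the mean of the within-batch differences, 4 with the replicate block, 4 without the batch term, 2 with length offsets and 8 without WT 3. In batch 1 they were 13, against 58 with no filter, 22 in a fit of that batch alone, 8 with the block, 2 with offsets and 5 to 20 without 1 library. In batch 2 they were 309, against 529, 89 with offsets, 202 without WT 7 and 65 without PAD2KO 7; for the interaction 161, against 323, 26 with offsets, 93 without WT 3, 102 without PAD2KO 3 and 33 without PAD2KO 7. Between batches they were 1853 in PAD2KO, against 864 with offsets, 1219 in DESeq2, 1199 without PAD2KO 6 and 1079 without PAD2KO 7, and 2212 in WT, against 1356 with offsets. With 2 or 3 libraries a group, intervals for Itga11 and Itgb5 are wide and Itga4 stays below the filter.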
